A study of Mus musculus with 18 samples.

Results

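The genes described here encode the aminoacyl-tRNA synthetases, the enzymes that load each amino acid onto its transfer RNA. Members were all rows of the deposited gene table whose symbol is a capital letter followed by ars, with or without a closing 1 or 2, together with Eprs, Farsa and Farsb. The rule found 37 of 15288 genes, and symbols that end in 2 were taken as the mitochondrial group. It gave 20 cytosolic and 17 mitochondrial members. All 37 members had a mean of at least 1 CPM (counts scaled to the same library total) over the libraries and entered the tests, as did 11835 genes in all.

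RNA was sequenced from mouse cells in 18 libraries. Source labels call the cells pulmonary microvascular endothelial cells, whereas the title of the series speaks of smooth muscle cells. Every dish received siRNA, either a scrambled control or one against CYP1B1 (siCYP1B1), a cytochrome P450 enzyme that hydroxylates estrogens. From 24 hours after transfection the cells had 24 hours with vehicle, with 1 uM E2 (estradiol) or with 1 uM 16aOHE (16-alpha-hydroxyestrone, an estrogen metabolite) in 5% serum. Each of the 3 agents was paired with each siRNA, which gave 6 groups of 3 libraries, all transfected, so an effect of transfection itself cannot be told apart. Strain, age and sex of the mice and the number of cell isolates were not given in the sources used here. Whether the 3 libraries of a group are separate cultures is not stated, so the p-values reflect only how far these samples spread, which may be technical.

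Cytosolic synthetases serve the translation of nuclear genes and are housekeeping enzymes of every cell. A set of them is held in the multisynthetase complex together with the scaffold proteins Aimp1, Aimp2 and Eef1e1. Mitochondrial synthetases are encoded in the nucleus by separate genes, are imported, and serve the translation of the few proteins of the mitochondrial genome. Exceptions are Gars and Kars, each of which gives both the cytosolic and the mitochondrial enzyme from 1 gene. When transfer RNAs are left uncharged, the kinase GCN2 (Eif2ak4) is activated and the transcription factor ATF4 is translated, and ATF4 is known to activate several synthetase genes along with genes of amino acid synthesis and uptake.

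The siRNA target was only slightly lower in the siCYP1B1 libraries. Cyp1b1 was at 89.1, 91.4 and 96.1 CPM in the scrambled vehicle libraries and at 80.8, 82.2 and 81.3 CPM with siCYP1B1 and vehicle, and the difference averaged over the 3 estrogen arms was -0.20 on the log2(CPM + 1) scale (95% interval -0.24 to -0.16, limma adjusted p = 5.83e-08). The groups did not overlap within any arm. In each library 1 CPM stood for an estimated 14.1 to 38.5 reads. Of 16 endothelial markers looked for, 10 had a row, and their levels differed widely. Means over the 18 libraries are given. Pecam1 (0.0481 CPM), Vwf (0.0305 CPM) and Sox18 (0.0255 CPM) were near 0, and Egfl7 (1.14 CPM) and Tek (0.824 CPM) were low. Cd34 was at 107 CPM, Flt1 at 70.0 CPM, Esam at 18.9 CPM, Eng at 7.76 CPM and Kdr at 4.37 CPM. Mesothelial and epithelial markers were mixed. Msln (1521 CPM), Upk1b (869 CPM), Upk3b (825 CPM), Krt19 (434 CPM), Wt1 (256 CPM) and Lrrn4 (85.8 CPM) were high. Krt18 (3.87 CPM), Cdh1 (3.09 CPM), Krt7 (2.58 CPM), Krt8 (0.522 CPM) and Epcam (0.343 CPM) were low. Fibroblast, smooth muscle and leukocyte markers were mixed too. The collagen genes Col1a1 (1946 CPM) and Col3a1 (2488 CPM) were high, while Lum (0.0427 CPM) and Rgs5 (0.061 CPM) were near 0. Of smooth muscle genes, Smtn was at 90.1 CPM, Acta2 at 20.5 CPM and Tagln at 2.66 CPM. Des (0.727 CPM), Cnn1 (0.106 CPM), Myh11 (0.0764 CPM) and Lmod1 (0.0667 CPM) were lower. Of leukocyte genes, Cd14 was at 21.99 CPM and Cd68 at 12.3 CPM. Csf1r (0.68 CPM), Ptprc (0.0312 CPM) and Itgam (0.029 CPM) were lower. In such bulk samples fewer cells of a type and less RNA per cell cannot be told apart.

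Promoter sequence is shown for the members that hold the core of a composite element known to bind ATF4, and for the cytosolic members with the largest E2 difference in each direction. Windows of 250 bases before to 50 bases after the start of transcription were taken from RefSeq on GRCm38.p6 and searched on both strands for TGATGNAA, the core of that element. Positions are counted from the start of transcription. Of the 37 members, 27 had a window. Cars, Hars, Hars2, Lars, Nars, Pars2, Rars, Vars and Wars were among those with none. The letters were found in 5 of 13 cytosolic members and in 0 of 14 mitochondrial members, against 4.51% of all 27025 genes with a window. For a gene with more than 1 window, a window with a match was taken where there was any. Counted by window, 3.97% of all 32851 held the letters. A match describes letters and not a bound site. The 30 bases around 1 match in each of the 5 members are given 5′ to 3′ on the strand of the gene, with the matched letters in capitals, which appear as the reverse complement where the match is on the other strand. Aars, the alanyl-tRNA synthetase, is given first, and it holds a further match from -112 that is not shown.
Aars (chr8:111033840-111033869, plus strand, match from 10): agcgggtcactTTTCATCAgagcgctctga
Gars (chr6:55037960-55037989, plus strand, match from -30): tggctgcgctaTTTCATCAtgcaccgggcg
Iars (chr13:49682126-49682155, plus strand, match from 8): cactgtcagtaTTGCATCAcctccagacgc
Tars (chr15:11399655-11399684, minus strand, match from -15): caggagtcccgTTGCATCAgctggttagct
Yars (chr4:129189895-129189924, plus strand, match from 4): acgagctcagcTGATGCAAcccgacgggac

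The 250 bases before the start are given for Sars, the cytosolic member with the largest rise under E2, and for Farsa, the one with the largest fall. Sars and Farsa held no match in their windows. Transcribed parts of 23 of the 27 windows matched a GENCODE transcript, and that of Sars was not among them.
Sars (chr3:108445260-108445509, minus strand): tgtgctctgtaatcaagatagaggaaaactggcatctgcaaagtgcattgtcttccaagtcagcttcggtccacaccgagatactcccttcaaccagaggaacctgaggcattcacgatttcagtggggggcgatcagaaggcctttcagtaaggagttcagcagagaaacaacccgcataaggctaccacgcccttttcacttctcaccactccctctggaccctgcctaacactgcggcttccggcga
Farsa (chr8:84856736-84856985, plus strand): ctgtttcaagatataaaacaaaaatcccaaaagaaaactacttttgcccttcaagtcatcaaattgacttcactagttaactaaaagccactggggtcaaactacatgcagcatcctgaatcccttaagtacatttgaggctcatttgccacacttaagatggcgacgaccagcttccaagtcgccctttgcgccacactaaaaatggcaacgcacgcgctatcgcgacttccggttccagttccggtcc

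Cytosolic members were more abundant than mitochondrial ones. Over the 18 libraries the median level was 78.8 CPM per kilobase of coding sequence in the cytosolic group and 13.2 CPM per kilobase in the mitochondrial group. Cytosolic levels ran from 38.5 CPM per kilobase in Iars to 205 in Kars, the lysyl-tRNA synthetase, followed by Sars at 171 and Nars at 165. The mitochondrial range was 3.93 CPM per kilobase in Aars2 to 33.0 in Iars2, the isoleucyl enzyme of mitochondria, so the groups did not overlap on this scale. In CPM not divided by length they did, with Iars2 at 100 CPM above Wars (82.7 CPM) and Farsb (79.0 CPM). Members varied little across libraries, with coefficients of variation of 3.66% (Gars) to 14.3% (Sars) in the cytosolic group and 4.06% (Iars2) to 17.6% (Ears2) in the mitochondrial group.

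Some members share sequence with a neighbour, and whether counting used the strand was not given in the sources used here. Annotated exons of Aars overlap those of Exosc6 on the same strand over 1326 bases, those of Iars2 overlap Rab3gap2 on the opposite strand over 2034 bases, those of Mars overlap Ddit3 on the opposite strand over 68 bases, and those of Hars and Hars2 overlap each other over 195 bases. Opposite-strand overlaps with other genes also include those of Vars2 (296 bases), Farsb (248), Fars2 (115), Ears2 (89) and Yars (30). Reads from these stretches may be split between the genes, so values of these members are uncertain to that extent. Under E2 with scrambled siRNA the Exosc6 difference was -0.08 (adjusted p = 0.375) where that of Aars was 0.26. With siCYP1B1 averaged over arms Exosc6 was called higher, by 0.20 (adjusted p = 0.000219), beside Aars at 0.25, and how far shared reads enter either value was not tested. Hars and Hars2, the cytosolic and mitochondrial histidyl enzymes, lie head to head on chromosome 18 with 3 bases between their rows.

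Synthetase genes of both compartments were higher in the siCYP1B1 libraries. Averaged over vehicle, E2 and 16aOHE, 29 of 37 members rose and 1 fell, where 44.7% of all 11835 genes were called (26.5% higher and 18.2% lower, limma with Benjamini-Hochberg adjustment, threshold 0.05). The count was 18 higher and 0 lower of 20 cytosolic members, and 11 higher and 1 lower of 17 mitochondrial members. The median difference was 0.12 for the members and 0.03 for all genes tested, on the log2(CPM + 1) scale used for all differences here, which understates the change of genes near 1 CPM. The summed level of the cytosolic members was 3887 ± 45.0 CPM (SD, n = 3) with scrambled siRNA and vehicle and 4344 ± 29.5 CPM with siCYP1B1 and vehicle, which is 11.8% more. Mitochondrial members summed to 462 ± 12.6 and 511 ± 10.9 CPM, which is 10.6% more. With median-of-ratios scaling in place of CPM, the averaged counts were 26 higher and 1 lower, while the higher share of all called genes went from 59.3% to 50.4%.

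**Figure D1:**
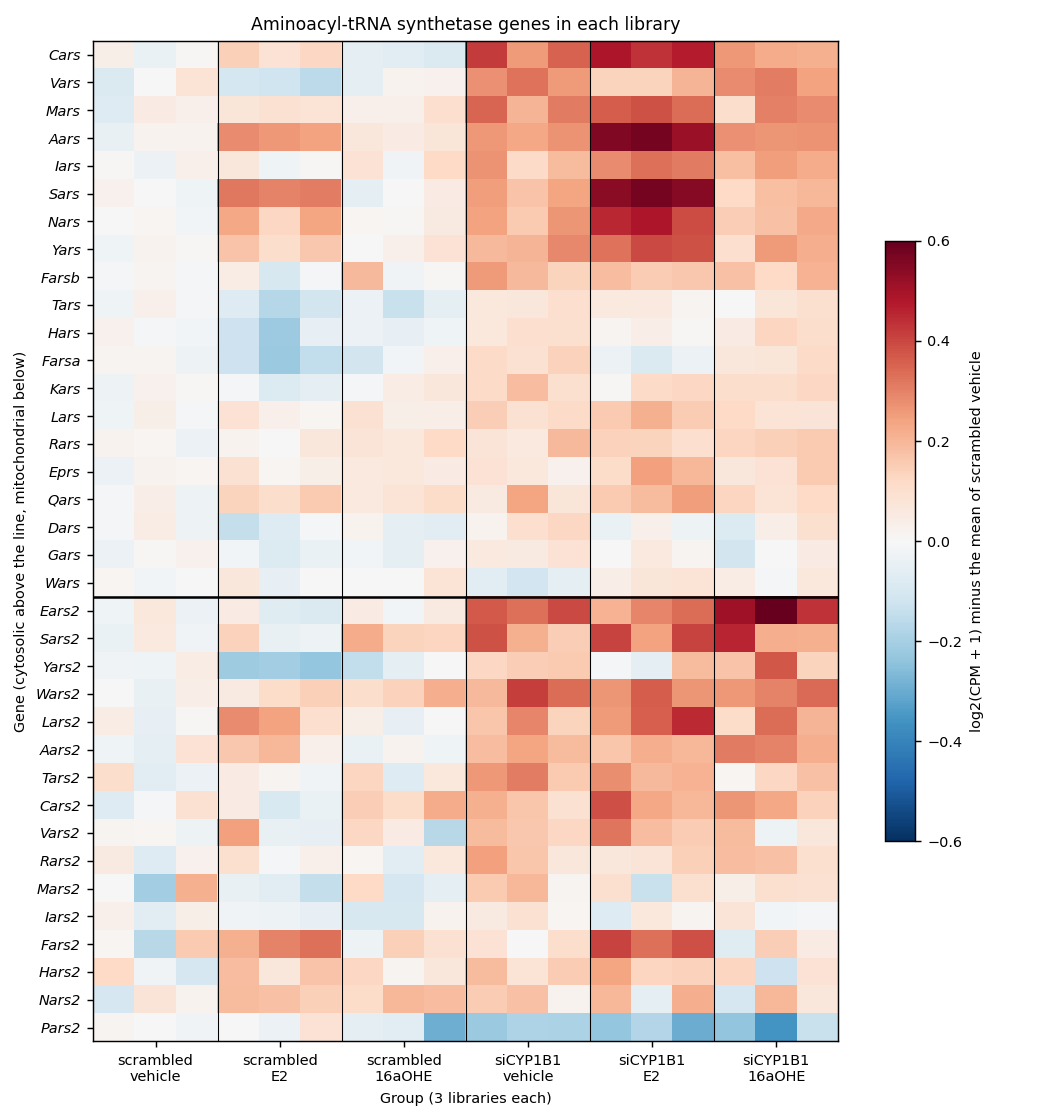
Each row is 1 of 36 synthetase genes and each column a library, in 6 groups of 3; colour gives log2(CPM + 1) minus the mean of the scrambled vehicle libraries. Most rows are redder in the 9 siCYP1B1 columns on the right, Pars2 is bluer there, and the Sars, Aars and Nars rows are darkest with siCYP1B1 and E2.

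The same direction was met within each arm. With vehicle 20 members rose and 0 fell (all genes 20.6% called, 11.5% higher and 9.12% lower), with E2 21 rose and 1 fell (21.2%, 11.4% and 9.80%), and with 16aOHE 15 rose and 0 fell (19.7%, 10.4% and 9.31%). Median-of-ratios scaling gave 12 members with vehicle, and leaving out siCYP1B1 16aOHE library 2 gave 9 with 16aOHE. The 10 members called higher in all 3 arms were Aars, Cars, Ears2, Farsa, Iars, Mars, Nars, Sars, Vars and Yars, while 4.66% of all genes were called higher in all 3. Of these, Aars, Cars, Ears2, Nars, Sars and Vars were called in every arm under each alternative run.

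Ears2, the mitochondrial glutamyl-tRNA synthetase, had the largest averaged difference. It was at 7.10, 7.62 and 7.04 CPM in scrambled vehicle libraries and at 9.63, 9.38 and 9.84 CPM with siCYP1B1 and vehicle. With 16aOHE it was at 7.53, 7.15 and 7.57 CPM with scrambled siRNA and at 10.7, 11.7 and 10.1 CPM with siCYP1B1. Every siCYP1B1 library lay above every scrambled one, the E2 arm included, and the averaged difference was 0.39 (SE 0.046, adjusted p = 7.41e-07).

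Cars, the cysteinyl enzyme, led the cytosolic group. Its levels were 122, 116 and 120 CPM with scrambled siRNA and vehicle and 160, 143 and 153 CPM with siCYP1B1 and vehicle, and 132, 127 and 130 CPM against 168, 162 and 166 CPM under E2. Groups were separate in every arm, and the averaged difference was 0.33 (SE 0.022, adjusted p = 1.47e-10). Vars, the valyl enzyme, was at 253, 268 and 284 CPM with scrambled siRNA and vehicle and at 324, 336 and 320 CPM with siCYP1B1. No siCYP1B1 library reached down to a scrambled one, with an averaged difference of 0.28 (SE 0.023, adjusted p = 2.73e-09).

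Mars, the methionyl enzyme of the multisynthetase complex, was at 95.2, 104 and 103 CPM with scrambled siRNA and vehicle and at 128, 116 and 125 CPM with siCYP1B1. These did not overlap, and the averaged difference was 0.25 (SE 0.028, adjusted p = 4.91e-07). Aars was at 367, 384 and 383 CPM against 453, 444 and 455 CPM in the same groups, again apart, with an averaged difference of 0.25 (SE 0.016, adjusted p = 1.38e-10). Sars2, the mitochondrial seryl enzyme, was at 12.6, 13.6 and 12.8 CPM against 17.2, 15.2 and 14.5 CPM, also apart. The averaged difference of Sars2 was 0.24 (SE 0.048, adjusted p = 0.000441). Its call with vehicle (0.25, limma adjusted p = 0.0401) held under 16 of 23 alternatives. With 16aOHE Sars2 was not called and its libraries overlapped. They were at 15.3, 14.3 and 14.3 CPM with scrambled siRNA and 18.2, 15.3 and 15.2 CPM with siCYP1B1.

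Pars2, the prolyl enzyme of mitochondria, was the 1 member that fell. Scrambled vehicle libraries had 12.9, 12.8 and 12.5 CPM and siCYP1B1 vehicle libraries 10.8, 11.1 and 11.0 CPM. These groups did not overlap, nor did those of the E2 arm. With 16aOHE they overlapped, at 12.2, 12.1 and 10.2 CPM with scrambled siRNA and 10.7, 9.71 and 11.5 CPM with siCYP1B1. Within single arms Pars2 was called with E2 alone (-0.25, adjusted p = 0.0288), and the averaged difference was -0.18 (SE 0.046, adjusted p = 0.0026). Members not called in the average were Gars (0.04), Wars (0.00), Fars2 (0.04), Hars2 (0.04), Iars2 (0.05), Mars2 (0.11) and Nars2 (-0.01). Their 95% intervals lay between -0.12 and 0.22. Gars, Hars2, Iars2, Mars2 and Nars2 were called in none of the 12 contrasts. Dars, Qars and Vars2 were among the 4 called that lost the call under at least 1 alternative, with highest adjusted p of 0.172, 0.0973 and 0.0586. Dars kept its call under 5 of 22 alternatives and lost it when any of 13 libraries was left out, and Qars lost it only with median-of-ratios scaling. Vars2 lost it without scrambled E2 2, E2 3 or 16aOHE 3 or siCYP1B1 E2 1 and with quantile normalization.

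All 8 synthetases of the multisynthetase complex (Dars, Eprs, Iars, Kars, Lars, Mars, Qars and Rars) were among those that rose. So were 10 of the 12 other cytosolic members, where 26.5% of all genes were called higher. The calls of Dars and Qars were among those lost under at least 1 alternative. Median differences were 0.09 for the complex and 0.18 for the others. This grouping was made after the values were seen and is a description. The scaffold genes Aimp1 (0.04), Aimp2 (0.05) and Eef1e1 (0.06) were not called.

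**Figure D2:**
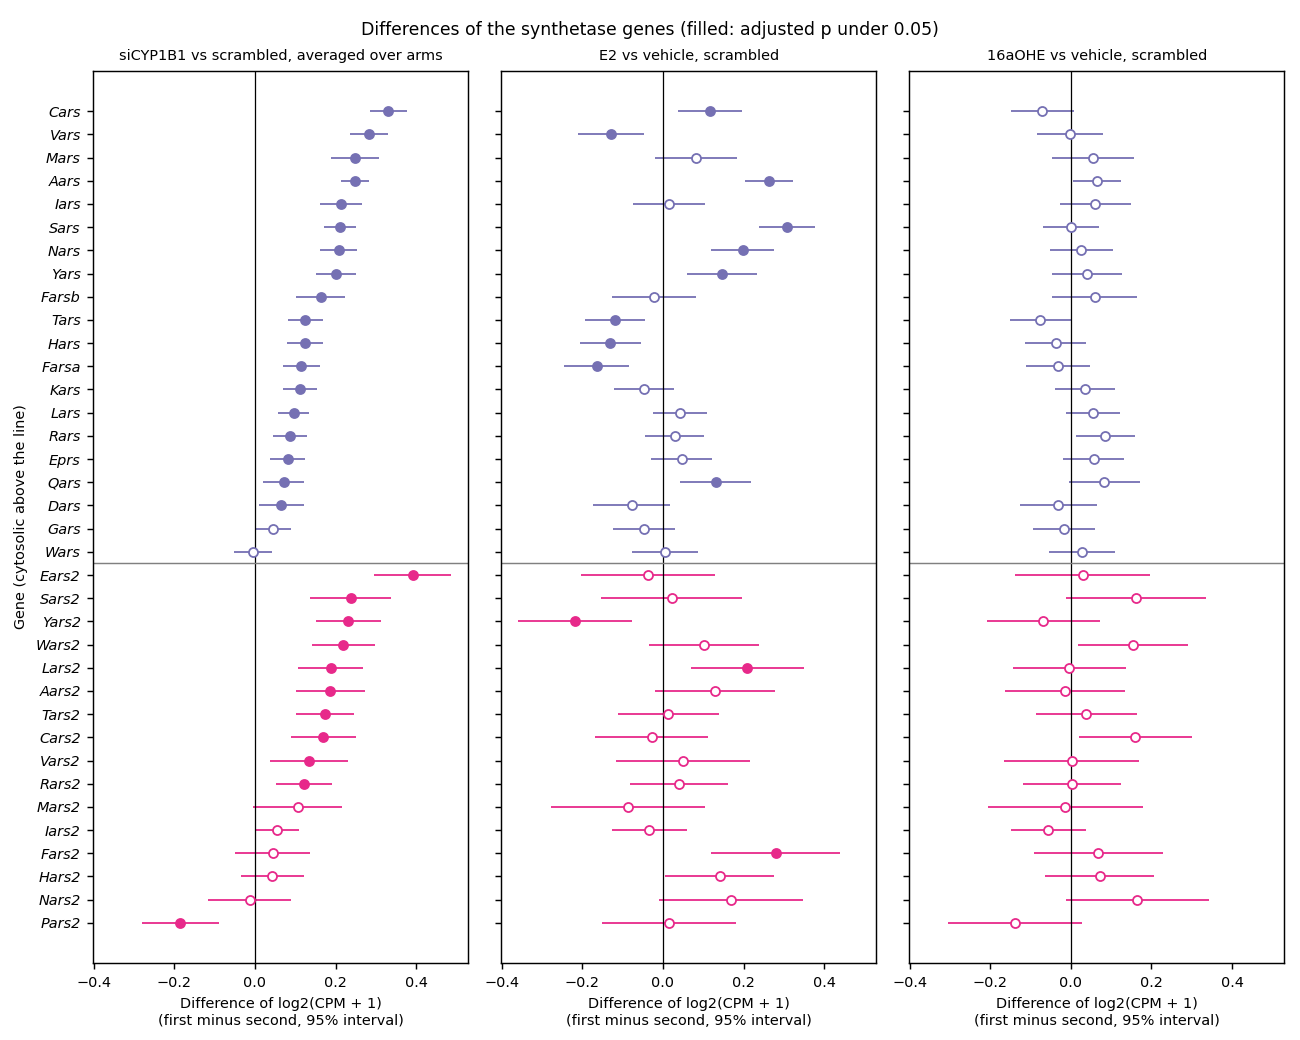
Points are differences of log2(CPM + 1) with 95% intervals for 36 of the genes, cytosolic above the line and mitochondrial below, filled where the adjusted p is under 0.05. With siCYP1B1 29 points are filled, 28 of them right of 0; with E2 13 are filled on both sides of 0; with 16aOHE none is filled.

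Under E2 synthetase genes were called in both directions, and the 37 members together were called about as often as all genes. The cytosolic group taken alone was called more often than all genes in either siRNA state. With scrambled siRNA 8 of 37 members rose and 5 fell against vehicle, where 30.0% of all genes were called (18.6% higher and 11.4% lower). The cytosolic group had 6 higher and 4 lower of 20, the mitochondrial group 2 higher and 1 lower of 17, and the median difference was 0.03 for the members and 0.03 for all genes. With siCYP1B1 9 rose and 2 fell, where 27.5% of all genes were called (16.7% higher and 10.8% lower). The cytosolic group then had 8 higher and 2 lower of 20, and the mitochondrial group 1 higher and 0 lower of 17. Leaving out scrambled vehicle library 3 left 8 members called with scrambled siRNA, and leaving out siCYP1B1 E2 library 2 left 7 with siCYP1B1. Median-of-ratios scaling gave 4 higher and 5 lower with scrambled siRNA and 5 higher and 3 lower with siCYP1B1, and it moved the higher share of all called genes from 62.0% to 46.9% and from 60.6% to 45.8%.

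Sars, the cytosolic seryl-tRNA synthetase, rose most. It was at 241, 236 and 232 CPM with vehicle and at 295, 290 and 293 CPM with E2 in scrambled libraries, which is 23.9% more. In siCYP1B1 libraries it was at 281, 266 and 278 CPM with vehicle and at 344, 352 and 346 CPM with E2. Both pairs of groups were apart, with differences of 0.31 (SE 0.033, limma adjusted p = 6.97e-07) and 0.34 (SE 0.033, adjusted p = 2.14e-07).

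Aars followed, at 367, 384 and 383 CPM with vehicle and 460, 453 and 447 CPM with E2 in scrambled libraries. All E2 libraries were above all vehicle libraries, with a difference of 0.26 (SE 0.028, adjusted p = 7e-07) and of 0.29 with siCYP1B1. Nars, the asparaginyl enzyme, was at 243, 245 and 239 CPM with vehicle and at 285, 265 and 286 CPM with E2. The difference of Nars was 0.20 (SE 0.038, adjusted p = 0.00042) and 0.22 with siCYP1B1, again without overlap.

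Fars2, the mitochondrial phenylalanyl enzyme, rose in both siRNA states. It was at 20.0, 17.6 and 22.2 CPM with vehicle and at 23.1, 24.6 and 25.2 CPM with E2 in scrambled libraries, without overlap. The difference was 0.28 (SE 0.077, adjusted p = 0.00876) and 0.31 with siCYP1B1 (adjusted p = 0.00487). The first had an adjusted p of 0.0722 without scrambled vehicle library 2. Lars2, the mitochondrial leucyl enzyme, was at 29.5, 27.6 and 28.7 CPM against 35.0, 34.0 and 30.8 CPM, also apart. Its difference of 0.21 (SE 0.067, adjusted p = 0.0226) lost the call without scrambled vehicle library 2 or 3, without scrambled E2 library 1 or 2 and under both other scalings (highest adjusted p = 0.0982), and it was 0.15 (adjusted p = 0.0945) with siCYP1B1.

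Farsa, the alpha subunit of the cytosolic phenylalanyl-tRNA synthetase, fell in both states. It was at 126, 126 and 122 CPM with vehicle and at 114, 107 and 112 CPM with E2 in scrambled libraries, and at 135, 133 and 137 CPM against 122, 117 and 122 CPM with siCYP1B1. The pairs did not overlap, with differences of -0.16 (SE 0.038, adjusted p = 0.00267) and -0.17 (adjusted p = 0.0027). Farsb, its beta subunit, differed by -0.02 and -0.03 and was not called. Vars fell by 0.13 in each state (adjusted p = 0.017 and 0.0194). Leaving out scrambled vehicle library 3 or E2 library 3 ended the Vars call in scrambled libraries (highest adjusted p = 0.125), and leaving out siCYP1B1 vehicle library 2 or E2 library 1 or 2 ended it with siCYP1B1 (highest adjusted p = 0.094).

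Yars2, the mitochondrial tyrosyl enzyme, was at 28.0, 28.0 and 29.4 CPM with vehicle and 24.4, 24.5 and 24.1 CPM with E2 in scrambled libraries. These groups were apart and the difference was -0.22 (SE 0.068, adjusted p = 0.0187, or 0.0717 without scrambled vehicle library 3). With siCYP1B1 the Yars2 libraries overlapped and the difference was -0.10 (adjusted p = 0.279). The cytosolic tyrosyl gene Yars rose instead, by 0.15 and 0.14.

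The other cytosolic members called with scrambled siRNA were Qars (0.13), Cars (0.12), Hars (-0.13) and Tars (-0.12). Each of these lost the call when 1 library was left out. The highest adjusted p was 0.123 for Qars, 0.109 for Cars, 0.0811 for Hars (without scrambled E2 library 2) and 0.0896 for Tars (without scrambled E2 library 2 or vehicle library 2). For Qars the libraries were scrambled vehicle 1 and 3 and E2 1 and 3, and for Cars scrambled vehicle 2 and 3 and E2 1 and 3. Median-of-ratios scaling also ended the calls of Qars and Cars, and quantile normalization that of Cars. The further calls with siCYP1B1 were Wars (0.14), Eprs (0.13) and Iars (0.12), of which Wars, the tryptophanyl enzyme, kept its call under each alternative. Eprs, the joint glutamyl and prolyl enzyme, lost it without siCYP1B1 E2 library 2 or vehicle library 3 and with median-of-ratios scaling (highest adjusted p = 0.0948), and Iars was called under 9 of 23 alternatives (highest adjusted p = 0.247).

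Aars, Cars, Fars2, Nars, Sars and Yars were called higher in both siRNA states, where 12.4% of all genes were, and Farsa and Vars lower in both, where 8.05% were. Median-of-ratios scaling ended the calls of Cars and Yars in both states, which was the 1 loss of Yars with scrambled siRNA (adjusted p = 0.0772). With siCYP1B1 Cars also lost the call without E2 library 1 or 3 or vehicle library 2 (highest adjusted p = 0.154), and Yars without E2 library 2 or 3 or vehicle library 1 or 2 (highest adjusted p = 0.1).

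**Figure D3:**
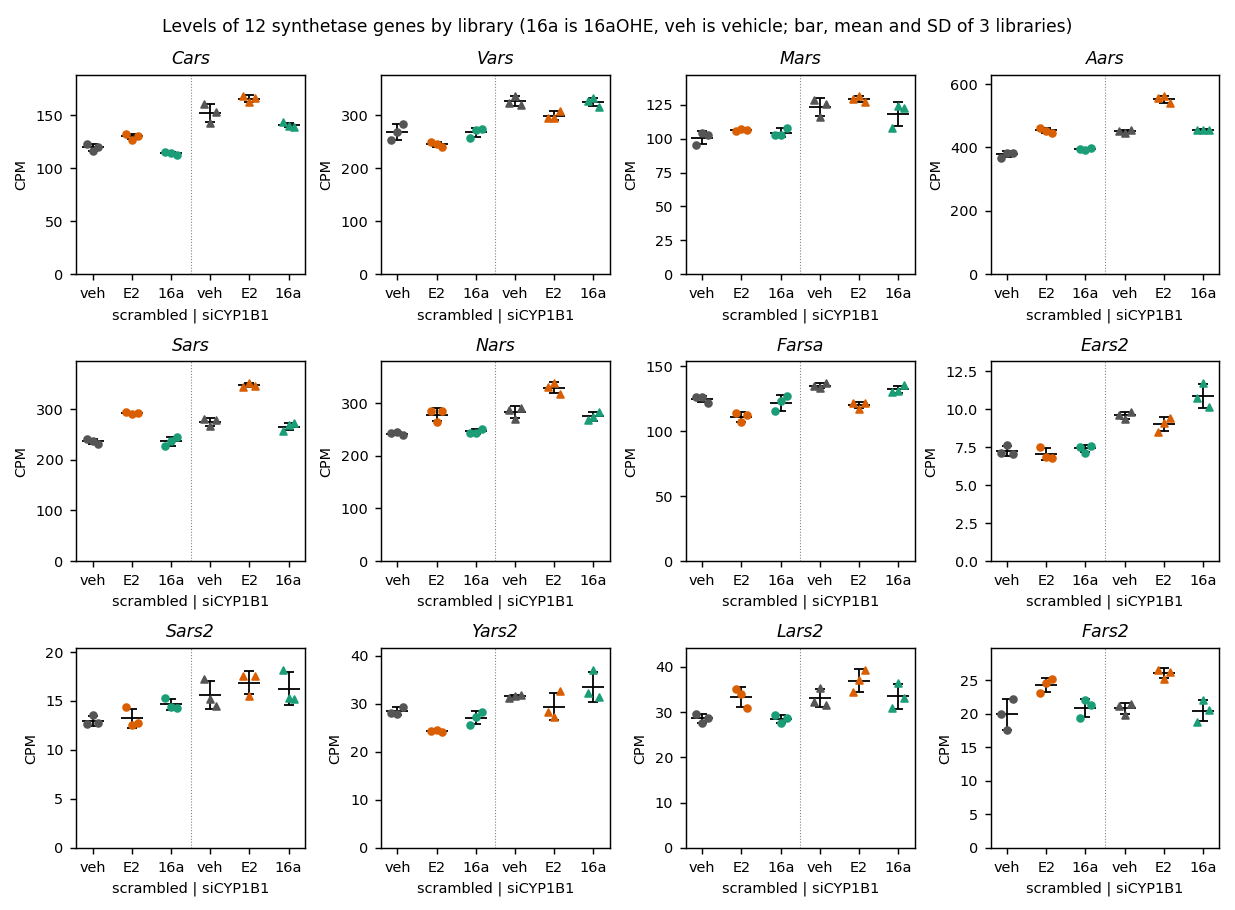
CPM in each library for the 12 members given library by library, with scrambled libraries left of the dotted line and siCYP1B1 libraries right of it; bars are the mean and SD of 3 libraries and each axis starts at 0. Sars and Aars are higher with E2 on both sides of the line and highest with siCYP1B1 and E2, whereas Farsa is lower with E2.

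No synthetase gene had an estrogen response called different between the siRNA states. In the interaction of E2 with siRNA 0 members were called, as were 0.00% of all genes by limma, and 1 member (Wars, 0.14) had an unadjusted p under 0.05. Interaction estimates of the members lay between -0.16 and 0.14, and their 95% intervals between -0.42 and 0.34. For 16aOHE 0 members were called (all genes 0.00%), 1 (Tars2, -0.18) had an unadjusted p under 0.05, and the intervals lay between -0.48 and 0.37. A p that misses the threshold does not show equal responses, and differences inside these intervals were not detectable here.

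**Figure D4:**
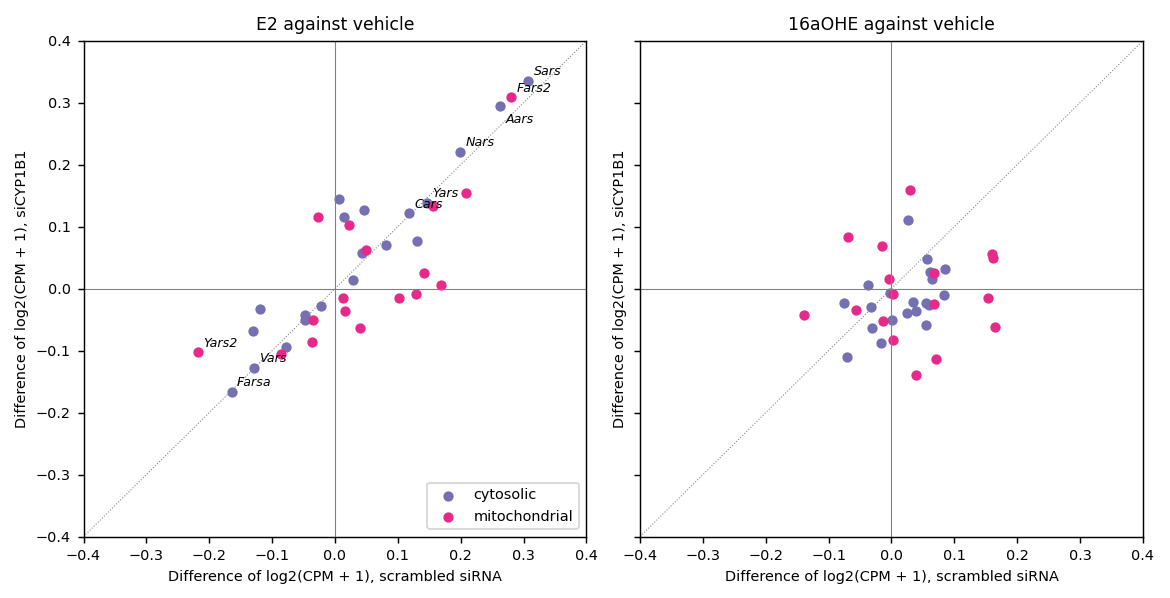
Each point is 1 synthetase gene, with its difference from vehicle under scrambled siRNA on the horizontal axis and under siCYP1B1 on the vertical axis; the dotted line marks equal differences. Under E2 Sars, Aars, Fars2 and Nars lie at the upper right and Farsa at the lower left; under 16aOHE all points lie within 0.17 of 0.

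Under 16aOHE no synthetase gene passed the threshold. The comparison shares its vehicle libraries with that of E2. Against vehicle 0 of 37 members were called by limma with scrambled siRNA, where 3.84% of all genes were (1.76% higher and 2.08% lower), and 5 (Aars, Cars2, Rars, Tars and Wars2) had an unadjusted p under 0.05. The lowest adjusted p was 0.233. With siCYP1B1 0 were called, where 5.40% of all genes were (2.53% higher and 2.86% lower), and 4 (Cars, Gars, Tars2 and Wars) had an unadjusted p under 0.05. The lowest adjusted p there was that of Cars, 0.0978, and without siCYP1B1 vehicle library 2 Cars was the 1 member called, lower. Sars shows how close the groups were, at 228, 237 and 245 CPM with 16aOHE and 241, 236 and 232 CPM with vehicle. Intervals of the cytosolic members with scrambled siRNA lay between -0.15 and 0.17, and those of the mitochondrial members between -0.30 and 0.34.

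E2 and 16aOHE differ in that 16aOHE has a ketone where E2 has its D-ring hydroxyl group and carries a further hydroxyl on the neighbouring carbon. They were compared directly at the matched dose of 1 uM and the matched time of 24 hours, as 1 pair in 2 siRNA states. With scrambled siRNA 2 members were higher with 16aOHE than with E2 and 5 lower, where 18.4% of all genes were called (6.78% higher and 11.6% lower). With siCYP1B1 3 were higher and 6 lower, where 18.3% were (6.59% and 11.8%). Adjusting over both states together left the counts at 7 and 9. The count with scrambled siRNA was 4 without 16aOHE library 2, without 16aOHE library 3 or without E2 library 2. Median-of-ratios scaling gave 4 higher and 4 lower with scrambled siRNA and 5 higher and 5 lower with siCYP1B1.

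The genes that separated the compounds were mostly those that E2 moved, which follows in part from the E2 libraries that both comparisons share. Sars was at 295, 290 and 293 CPM with E2 and 228, 237 and 245 CPM with 16aOHE, without overlap, a difference of -0.31 (SE 0.033, limma adjusted p = 2.45e-06). Aars was at 460, 453 and 447 CPM against 396, 391 and 398 CPM, also apart, a difference of -0.20 (adjusted p = 6.14e-05). Cars was at 132, 127 and 130 CPM against 115, 114 and 112 CPM. Again no library overlapped, and the difference of Cars was -0.19 (adjusted p = 0.00151). Nars differed by -0.17 (adjusted p = 0.00262) and Lars2 by -0.21 (adjusted p = 0.0312), and Farsa and Vars were higher with 16aOHE by 0.13 each. The Lars2 call was lost without scrambled 16aOHE library 2 or 3, without E2 library 1 or 2 and under both other scalings (highest adjusted p = 0.138). Those of Farsa and Vars were lost without 16aOHE library 2 or 3 or E2 library 2, that of Farsa also in a fit of the compared groups alone, and that of Vars also without E2 library 3 and with quantile normalization (highest adjusted p 0.111 and 0.103).

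The members lower with 16aOHE than with E2 under siCYP1B1 were Sars (-0.39), Fars2 (-0.33), Aars (-0.28), Nars (-0.26), Cars (-0.23) and Yars (-0.18), and the higher ones Ears2 (0.25), Farsa (0.14) and Vars (0.12). Yars lost its call with median-of-ratios scaling (adjusted p = 0.0502). The last 3 each lost the call when 1 library was left out, with highest adjusted p of 0.169 for Ears2 (without E2 library 1, 2 or 3 or 16aOHE library 1 or 2, and also without the filter on low values or in a fit of the compared groups alone), 0.0759 for Farsa (E2 library 2 or 16aOHE library 3) and 0.134 for Vars (E2 library 1 or 2 or 16aOHE library 1 or 2, and also a fit of the compared groups alone). For the members not called, 95% intervals of the difference between the compounds lay between -0.37 and 0.33 with scrambled siRNA and between -0.31 and 0.33 with siCYP1B1.

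Genes listed for amino acid sensing and the ATF4 response moved with E2 and with siCYP1B1. The list was chosen with earlier results of these data known, so its counts are a description. Of 32 tested, 24 rose and 0 fell under E2 with scrambled siRNA, 25 rose and 0 fell under E2 with siCYP1B1, and 25 rose and 0 fell with siCYP1B1 averaged over arms. Their medians were 0.31, 0.34 and 0.18, where those of all genes were 0.03, 0.04 and 0.03. In the same order, 18.6%, 16.7% and 26.5% of all genes were called higher and 11.4%, 10.8% and 18.2% lower. Atf4 was at 207, 200 and 186 CPM with vehicle and 263, 239 and 254 CPM with E2, and it differed by 0.35 (adjusted p = 2.84e-05) under E2 and by 0.18 with siCYP1B1. Asns, the asparagine synthetase, was at 52.3, 51.3 and 53.7 CPM against 76.9, 70.9 and 79.5 CPM, with a difference of 0.52 under E2 and 0.33 with siCYP1B1. Neither gene overlapped between vehicle and E2. Ddit3, which codes for the stress factor CHOP, differed by 0.44 and 0.11. The largest differences under E2 were in Stc2 (1.50), Aldh1l2 (0.98), Trib3 (0.83) and Vldlr (0.81), and with siCYP1B1 in Stc2 (0.62), Aldh1l2 (0.53), Atf5 (0.47) and Shmt2 (0.37). Under 16aOHE with scrambled siRNA 1 rose (Stc2, 1.05) and 1 fell (Ddit4, -0.17), where 1.76% of all genes were called higher and 2.08% lower.

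The remaining lists stand beside the same shares of all genes, which are 18.6% higher and 11.4% lower under E2 with scrambled siRNA and 26.5% higher and 18.2% lower with siCYP1B1 averaged over arms. Of 19 synthetase partners and tRNA charging genes, 4 rose and 2 fell under E2, shares near those of all genes and of the synthetases. Pstk, the kinase of the selenocysteine pathway, was at 0.36, the peptidyl-tRNA hydrolase Ptrh2 at -0.23, and Dtd2, a D-aminoacyl-tRNA deacylase, at 0.25. Aimp2, a scaffold of the multisynthetase complex, differed by -0.22. With siCYP1B1 averaged over arms 8 rose and 1 fell, among them Dtd1 (0.33) and the amidotransferase subunit Gatc (0.23), with Prorsd1 at -0.18. Of 14 mitochondrial translation factors 0 rose and 1 fell under E2 (Gfm1, -0.11), and 6 rose and 2 fell with siCYP1B1, among them Tsfm (0.24), Gfm2 (0.22) and Mtrf1 (-0.16). Of 10 cytosolic elongation and termination genes 0 rose and 3 fell under E2, with Eif5a at -0.22, and 7 rose and 0 fell with siCYP1B1, with the kinase gene Eef2k at 0.33.

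**Figure D5:**
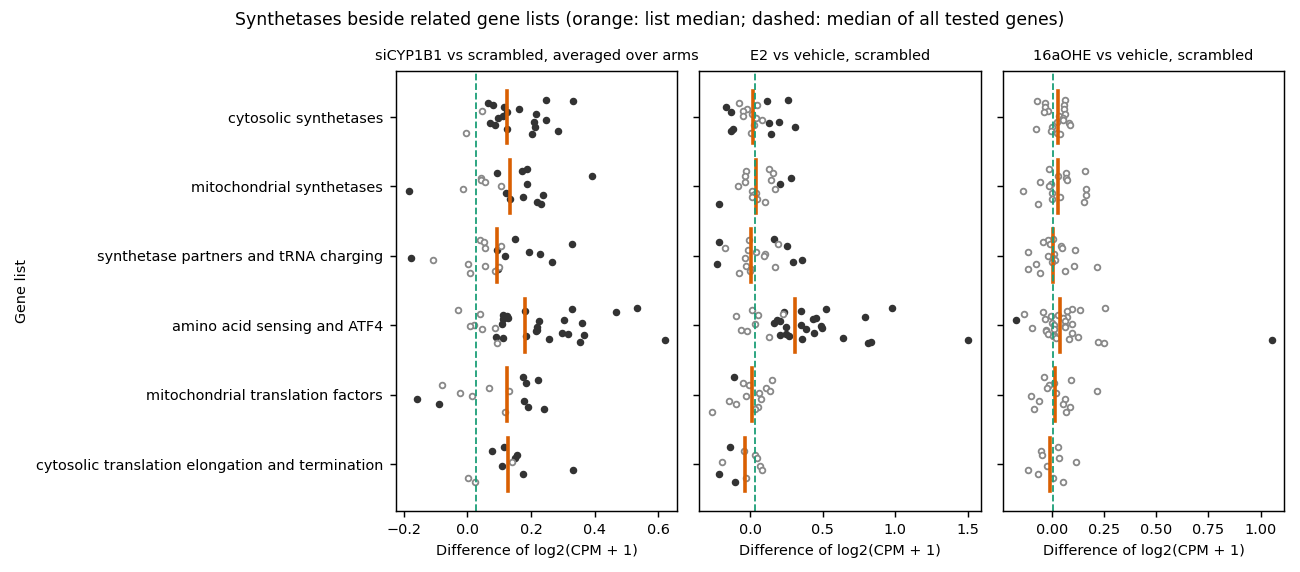
Points are genes of each list, filled where the adjusted p is under 0.05, with the list median as an orange bar and the median of all tested genes as a dashed line; horizontal axes differ between panels. With siCYP1B1 the synthetase medians lie right of the dashed line, and with E2 they lie near it while that of the ATF4 list is 0.31.

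Markers of several cell types moved beside these results, and their part in them was not tested. Of all genes, 26.5% were called higher and 18.2% lower with siCYP1B1 averaged over arms. Under E2 with scrambled siRNA 18.6% were called higher and 11.4% lower. With siCYP1B1 averaged over arms, 6 of 9 tested mesothelial and epithelial markers, 5 of 6 fibroblast and pericyte markers, 3 of 3 smooth muscle markers and 3 of 6 endothelial markers fell, and none of their markers rose. In vehicle libraries the mesothelial and epithelial list summed to between 4915 and 4999 CPM with scrambled siRNA and between 3748 and 3911 CPM with siCYP1B1. The fibroblast and pericyte list summed to between 6562 and 6922 CPM and between 5233 and 5531 CPM. For the endothelial list the ranges were 267 to 306 CPM and 195 to 198 CPM, and for the smooth muscle list 132 to 137 CPM and 110 to 118 CPM. Under E2 with scrambled siRNA 8 of 9 mesothelial and epithelial markers fell (sum 3802 to 4052 CPM), 4 of 6 fibroblast and pericyte markers fell and 1 rose (4272 to 4785 CPM), 4 of 6 endothelial markers fell (218 to 227 CPM) and 1 of 3 smooth muscle markers fell (102 to 121 CPM). Leukocyte markers had 0 of 2 called in either comparison by limma, also 0 at an unadjusted p under 0.05, with sums of 34.4 to 38.4 CPM with vehicle, 34.8 to 37.0 CPM with siCYP1B1 and 32.5 to 34.6 CPM with E2.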

How the data were processed

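The deposited table holds CPM values per gene for 18 libraries, made by the authors. Per the submitters' processing notes, TopHat2, Partek and the mm10 build were used, with versions, annotation, filters and strandedness not given in the sources used here. Because only about 93.2% to 94.0% of low values were whole read numbers within 0.1 reads, they were not treated as counts. Differences on log2(CPM + 1) were tested by limma 3.58.1 under R 4.3.3 (lmFit, then eBayes with a trend) for the 11835 genes averaging at least 1 CPM, with 1 coefficient per group over all 18 libraries and Benjamini-Hochberg adjustment over all tested genes in each of 12 contrasts. The procedure was tested on simulated data. Members and lists were chosen with earlier results of these data known. Values in every library are given for the 4 cytosolic and 2 mitochondrial members with the largest called difference in each of 4 contrasts (E2 or 16aOHE against vehicle, 16aOHE against E2, siCYP1B1 averaged); from each list up to 4 called genes are named, with Atf4, Ddit3 and Asns, and Pars2, Yars, Wars and other members beyond the rule were named after their values were seen. Levels were divided by the longest coding sequence in GENCODE. Alternatives were another pseudocount (0.1), no filter, median-of-ratios and quantile scaling, a fit on the compared groups only, and each library left out. A few items, among them 1 member, are counted but not reported by name here.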

Additional observations from a re-analysis of the deposited data

How the results depend on the processing

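No direction of a called member reversed under any alternative run. Counts of members called under the alternatives were as follows. With median-of-ratios scaling siCYP1B1 against scrambled with vehicle gave 12 in place of 20. Leaving out 1 library at a time gave 4 to 9 for 16aOHE against E2 with scrambled siRNA (4 without 16aOHE library 2, 16aOHE library 3 or E2 library 2), 6 to 9 for the same with siCYP1B1, and 0 to 1 for 16aOHE against vehicle with siCYP1B1 (1 without siCYP1B1 vehicle library 2). For E2 against vehicle it gave 8 to 14 with scrambled siRNA and 7 to 11 with siCYP1B1. For siCYP1B1 against scrambled it gave 14 to 20 with vehicle, 17 to 23 with E2, 9 to 15 with 16aOHE and 28 to 30 averaged over arms. Interaction counts and 16aOHE against vehicle with scrambled siRNA stayed at 0. The causes were not tested. Of the 30 averaged siRNA calls, 26 held under each alternative, and of the 13 E2 calls with scrambled siRNA 4 did (Aars, Farsa, Nars and Sars). Median-of-ratios scaling took the median E2 difference of the members with scrambled siRNA from 0.03 to -0.01. No paired analysis was possible because the labels carry no replicate numbers. Standard errors reached 0.092 (Mars2) among the mitochondrial members and 0.051 (Farsb) among the cytosolic ones, and the shallowest library held 14.1 reads per CPM; how far depth sets these errors was not tested.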
